A study of Mus musculus with 39 samples.

Results

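Transcripts of 9 genes that sense nucleic acids were followed in dendritic cells (DC) of the mouse lymph node after immunization with particles that carry DNA. The genes were taken by symbol. Endosomal members were Tlr3, Tlr7, Tlr9, Unc93b1 and Myd88, and cytosolic members were Ddx58, Ifih1, Dhx58 and Zbp1. All 9 were found in each of 3 deposited count tables of DC, which hold 24421, 24421 and 24411 genes. The tables cover 33 libraries in 12 groups.

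DC were enriched from popliteal and inguinal nodes by negative selection and sorted, with gates that the labels do not give. The mice were C57BL/6, aged 8 to 12 weeks, and received nanoparticles by subcutaneous injection at the hock. Per the series description these held CpG DNA, a rhodamine dye and the antigen ovalbumin (OVA), and OVA-specific T cells of the OT-I and OT-II lines had been engrafted into the mice. A time course compared 2 libraries of non-immunized wild-type mice with 2 each at 12 h and 24 h after CpG-only particles or particles with CpG and OVA. A costimulation experiment at 12 h had 2 libraries each of wild-type DC after OVA without OT cells, after OVA with OT cells and after bovine serum albumin (BSA) with OT cells, and of DC labelled Cd80/86 -/- after OVA with OT cells. It has no non-immunized group, and its labels name the antigen but not CpG. The last experiment had 5 libraries each of non-immunized wild-type mice and of wild-type mice 20 h after particles with CpG and either OVA or BSA. The labels of the time course and of the 20 h experiment do not say for each sample whether OT cells were present. They do not say either whether replicates came from separate animals, so p-values measure the spread between these libraries, which may be technical.

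The endosomal receptors sit in the membrane of acidified compartments and read nucleic acids that a cell has taken up. TLR3 binds double-stranded RNA, TLR7 binds single-stranded RNA, and TLR9 binds DNA with unmethylated CpG, the adjuvant used here. UNC93B1 is the chaperone that carries all of them from the endoplasmic reticulum to the endosome, and MYD88 is the adaptor through which TLR7 and TLR9 signal, while TLR3 signals through TICAM1. The cytosolic members read nucleic acids inside the cell. DDX58 (RIG-I) and IFIH1 (MDA5) bind viral RNA and signal through MAVS, DHX58 (LGP2) is their relative without a signalling domain, and ZBP1 binds Z-form nucleic acid and can start cell death through RIPK3 and MLKL. Plasmacytoid DC are known for high TLR7 and TLR9, type 1 conventional DC for TLR3, and the cytosolic members belong to the genes that type I interferon induces in most cells.

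Promoters are shown for the 3 members with a motif match and for Tlr9, the receptor of the adjuvant, as one without. RefSeq's table (GRCm38.p6) held 5 of the 9 members, Tlr3, Tlr9, Myd88, Ddx58 and Ifih1, and 4 (Tlr7, Unc93b1, Dhx58 and Zbp1) were not matched. Each stretch runs 5′ to 3′ on the gene's strand from 250 bases before the transcription start to the first 50 bases transcribed, and capitals mark a match to the core of the interferon-stimulated response element, spelled GAAA, any 2 bases, then GAAA and searched on both strands. The positions are chr9:119339969-119340268 on the minus strand for Myd88, chr4:40239776-40240075 on the minus strand for Ddx58, chr2:62646206-62646505 on the minus strand for Ifih1, and chr9:106222348-106222647 on the plus strand for Tlr9.
Myd88: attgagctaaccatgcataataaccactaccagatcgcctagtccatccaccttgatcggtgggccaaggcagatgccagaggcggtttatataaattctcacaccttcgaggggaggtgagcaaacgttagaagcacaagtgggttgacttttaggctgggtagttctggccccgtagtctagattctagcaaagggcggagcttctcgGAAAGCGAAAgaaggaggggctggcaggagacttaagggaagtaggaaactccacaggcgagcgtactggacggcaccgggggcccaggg
Ddx58: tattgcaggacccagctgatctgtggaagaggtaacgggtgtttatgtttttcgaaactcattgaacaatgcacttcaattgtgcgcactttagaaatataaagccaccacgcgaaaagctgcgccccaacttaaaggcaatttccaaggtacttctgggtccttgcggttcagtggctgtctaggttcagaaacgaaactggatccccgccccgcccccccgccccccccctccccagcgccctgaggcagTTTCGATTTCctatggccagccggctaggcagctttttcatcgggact
Ifih1: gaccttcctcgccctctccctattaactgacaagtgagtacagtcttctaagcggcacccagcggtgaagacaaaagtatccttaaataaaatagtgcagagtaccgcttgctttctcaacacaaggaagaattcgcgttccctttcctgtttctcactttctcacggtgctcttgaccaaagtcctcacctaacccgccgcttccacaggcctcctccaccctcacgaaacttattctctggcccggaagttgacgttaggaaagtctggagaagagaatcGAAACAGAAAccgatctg
Tlr9: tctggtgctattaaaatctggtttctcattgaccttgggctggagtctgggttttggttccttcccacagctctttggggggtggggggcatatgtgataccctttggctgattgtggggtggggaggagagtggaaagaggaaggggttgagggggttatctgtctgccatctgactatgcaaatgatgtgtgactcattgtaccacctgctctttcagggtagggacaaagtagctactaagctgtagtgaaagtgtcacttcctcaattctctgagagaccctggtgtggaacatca
The match in Myd88 ran from 40 to 31 bases before the start. In Ddx58 it lay on the opposite strand at bases 3 to 12 after the start, and in Ifih1 at bases 33 to 42 after it. Neither the Tlr9 stretch nor that of Tlr3 (chr8:45410331-45410630, minus strand) held these letters. A match occurred in 943 of 27025 promoters of this length, or 3.49%. A second motif, the interferon-gamma activated site TTCNNNGAA, was found in 2288 promoters (8.47%) and among the members only in Myd88, from 46 to 38 bases before the start, where it overlaps the first match. These are matches of letters and not measured binding.

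Libraries held between 367209 and 2052904 counts, with ranges of 612017 to 1329203 in the time course, 628404 to 1621784 in the costimulation experiment and 367209 to 2052904 at 20 h. The shallowest was non-immunized replicate 3 of the 20 h experiment, which also had the highest summed monocyte and macrophage markers of its group (2317 against 750.1 to 1327 CPM, where CPM is a count divided by the library total and multiplied by 1e+06). Y-linked transcripts were above 20 CPM in non-immunized replicates 1, 2 and 3 and OVA replicates 3 and 4 of that experiment and in none of its BSA libraries. The 10 DC markers summed to 2864 to 12960.3 CPM in the time course, 5109.8 to 24059.9 CPM in the costimulation experiment and 20034 to 36649 CPM at 20 h. In the time course the conventional DC factor Zbtb46 was at only 0.815 to 11.3 CPM and Itgax at 13.6 to 103 CPM. The 14 plasmacytoid DC markers summed to 1862 to 3741 CPM there and 751 to 1316 CPM at 20 h. Of these, Bst2 (165 to 1899 CPM) and Ccr9 (77.7 to 541 CPM) were present in every time course library, while Siglech was at 0 in 8 of 10 and at most 1.28 CPM in the others. Summed T cell markers reached 1832.5 to 7037 CPM in the time course against 171 to 1158 in the costimulation experiment and 158 to 332 at 20 h. In the non-immunized time course libraries they (6732 and 7037 CPM) exceeded the DC markers (4526 and 2864 CPM). In the libraries labelled Cd80/86 -/-, Cd86 stood at 37.4 and 48.5 CPM and Cd80 at 4.23 and 12.4 CPM. The wild-type libraries with OVA and OT cells had 81.5 and 82.6 CPM of Cd86 and 11.4 and 10.0 CPM of Cd80. The labels do not say which part of these genes was deleted.

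Tlr9, the receptor for the adjuvant, was barely detected in any group. The 10 time course libraries held 13 Tlr9 counts in all, the 8 costimulation libraries 33 and the 15 libraries at 20 h 32. Pooled over libraries this is 1.38 CPM in the time course (95% exact Poisson interval 0.736 to 2.36), 3.79 CPM in the costimulation experiment (2.61 to 5.32) and 1.62 CPM at 20 h (1.11 to 2.29). It was at 0 in 3, 1 and 1 libraries of the 3 experiments. These intervals cover counting error only.

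Time course libraries gave 2 and 1 Tlr9 counts without immunization, 0 and 2 at 12 h and 0 and 3 at 24 h after CpG-only particles, and 3 and 0 at 12 h and 1 and 1 at 24 h after OVA particles. Every group overlapped every other, and group levels pooled over both libraries ran only from 1.24 to 1.55 CPM. Tlr9 did not reach the count filter in any experiment and was therefore not tested there. Fits without the filter gave differences from non-immunized DC between 0.13 and 0.42 on the log2 scale in the time course, with standard errors between 1.65 and 1.84. A change of Tlr9 by 2-fold in either direction would not have been detectable at this depth.

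The highest Tlr9 level was that of wild-type DC after OVA without OT cells, with 12 and 6 counts, or 7.40 and 4.67 CPM (6.19 CPM pooled, interval 3.67 to 9.78). With OT cells the wild-type libraries had 2 and 3 counts after OVA (2.37 CPM pooled, 0.769 to 5.53) and 2 and 0 after BSA (1.35 CPM, 0.164 to 4.89), and those labelled Cd80/86 -/- had 6 and 2 (3.60 CPM, 1.55 to 7.10). All intervals of neighbouring groups in this order overlapped. By library, OVA without OT cells lay above OVA with OT cells (1.52 and 3.76 CPM), on few counts. An edgeR fit without the count filter gave -1.22 ± 1.01 (log2, SE) for OVA with against without OT cells. At 20 h Tlr9 had 1, 1, 0, 5 and 1 counts in non-immunized replicates 1 to 5, 2, 2, 1, 2 and 2 after OVA, and 1, 2, 3, 2 and 7 after BSA. Apart from BSA replicate 5 at 5.30 CPM and non-immunized replicate 4 at 3.05 CPM, no library of that experiment was above 2.18 CPM.

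**Figure D1:**
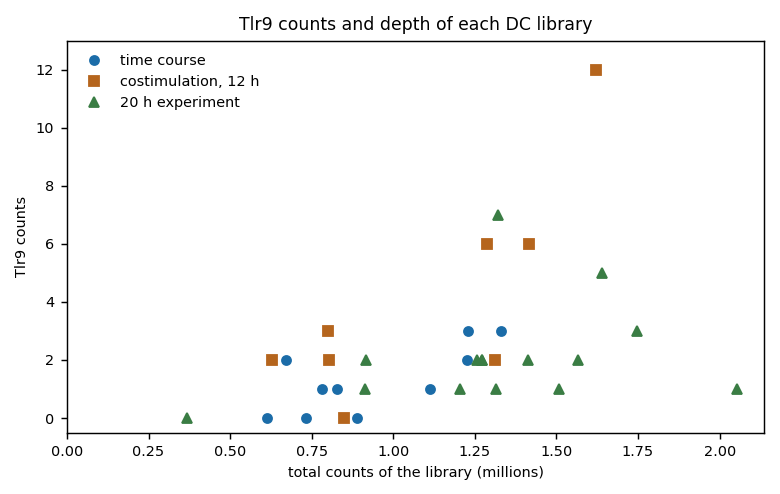
Tlr9 counts (vertical axis) against the total counts of each of the 33 DC libraries, shown in units of 1e+06 (horizontal axis), with one symbol per experiment. Most libraries lie between 0 and 3 counts at any depth, and the highest is a wild-type library after OVA without OT cells, at 12 counts.

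All 4 cytosolic sensors rose after each immunization of the time course, with either particle and at both times. In the same libraries 9.56% of all 9428 tested genes rose at 12 h and 10.2% at 24 h after OVA particles, and 11.6% at 12 h and 7.96% at 24 h after CpG-only particles. Called here means an adjusted p under 0.05 in edgeR's quasi-likelihood test with Benjamini-Hochberg adjustment over all tested genes. Counting both directions, 16.3%, 11%, 13.6% and 14.1% of genes were called in the comparisons of CpG at 12 h, CpG at 24 h, OVA at 12 h and OVA at 24 h with non-immunized DC. These 4 comparisons share the same 2 control libraries. RNA came from bulk sorted cells, so fewer cells of a type and less RNA per cell cannot be told apart.

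Zbp1, the Z-form nucleic acid sensor, stood at 136 and 106 CPM in the 2 non-immunized libraries, at 448 and 375 CPM at 12 h and 484 and 494 CPM at 24 h after CpG-only particles, and at 807 and 555 CPM at 12 h and 440.0 and 364 CPM at 24 h after OVA particles. Every immunized library was above both controls, and both OVA libraries at 12 h were above all others. By edgeR's test Zbp1 rose by 1.98 ± 0.23 (log2, SE) at 12 h and 2.21 ± 0.23 at 24 h after CpG (adjusted p 2.32e-05 and 6.98e-06). After OVA it rose by 2.72 ± 0.23 at 12 h and 1.95 ± 0.23 at 24 h (adjusted p 6.91e-07 and 1.71e-05).

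Ifih1, the sensor of long double-stranded RNA, was at 45.7 and 50.3 CPM without immunization, at 166 and 182 CPM at 12 h and 237 and 189.6 CPM at 24 h after CpG-only particles, and at 343 and 290.3 CPM at 12 h and 203 and 175 CPM at 24 h after OVA particles. The controls were lowest and OVA at 12 h highest, with no overlap, while OVA at 24 h overlapped both CpG groups, which did not overlap each other. Its rise was 2.07 ± 0.22 and 2.34 ± 0.22 on the log2 scale at 12 h and 24 h after CpG, and 2.95 ± 0.22 and 2.20 ± 0.22 after OVA (edgeR adjusted p between 2.52e-07 and 1.26e-05).

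Dhx58, the regulator of both RNA helicases, had 48.9 and 29.6 CPM in non-immunized libraries, 141 and 131 CPM at 12 h and 163 and 211 CPM at 24 h after CpG-only particles, and 243 and 209.9 CPM at 12 h and 148 and 145 CPM at 24 h after OVA particles. Every immunized library exceeded the controls, and OVA at 12 h overlapped CpG at 24 h. It rose by 2.00 ± 0.25 and 2.45 ± 0.24 (log2) at 12 h and 24 h after CpG, and by 2.75 ± 0.24 and 2.10 ± 0.25 after OVA (edgeR adjusted p between 9.97e-07 and 4.49e-05).

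Ddx58, which encodes RIG-I, was at 138 and 120.3 CPM without immunization, 223 and 257 CPM at 12 h and 353 and 372 CPM at 24 h after CpG-only particles, and 392 and 391 CPM at 12 h and 279 and 289 CPM at 24 h after OVA particles. No groups overlapped for this gene, and their order from low to high was non-immunized, CpG at 12 h, OVA at 24 h, CpG at 24 h and OVA at 12 h. Ddx58 had the smallest rises of the cytosolic members, from 1.10 ± 0.18 (log2) at 12 h after CpG to 1.83 ± 0.18 at 12 h after OVA (edgeR adjusted p 0.00051 and 3.11e-06). The median change of the cytosolic members was 1.99, 2.28, 2.73 and 2.03 (log2) for CpG at 12 h, CpG at 24 h, OVA at 12 h and OVA at 24 h, where the median of all tested genes lay between -0.032 and 0.003. In each of these comparisons all 4 cytosolic calls held in every alternative run, including each library left out in turn.

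**Figure D2:**
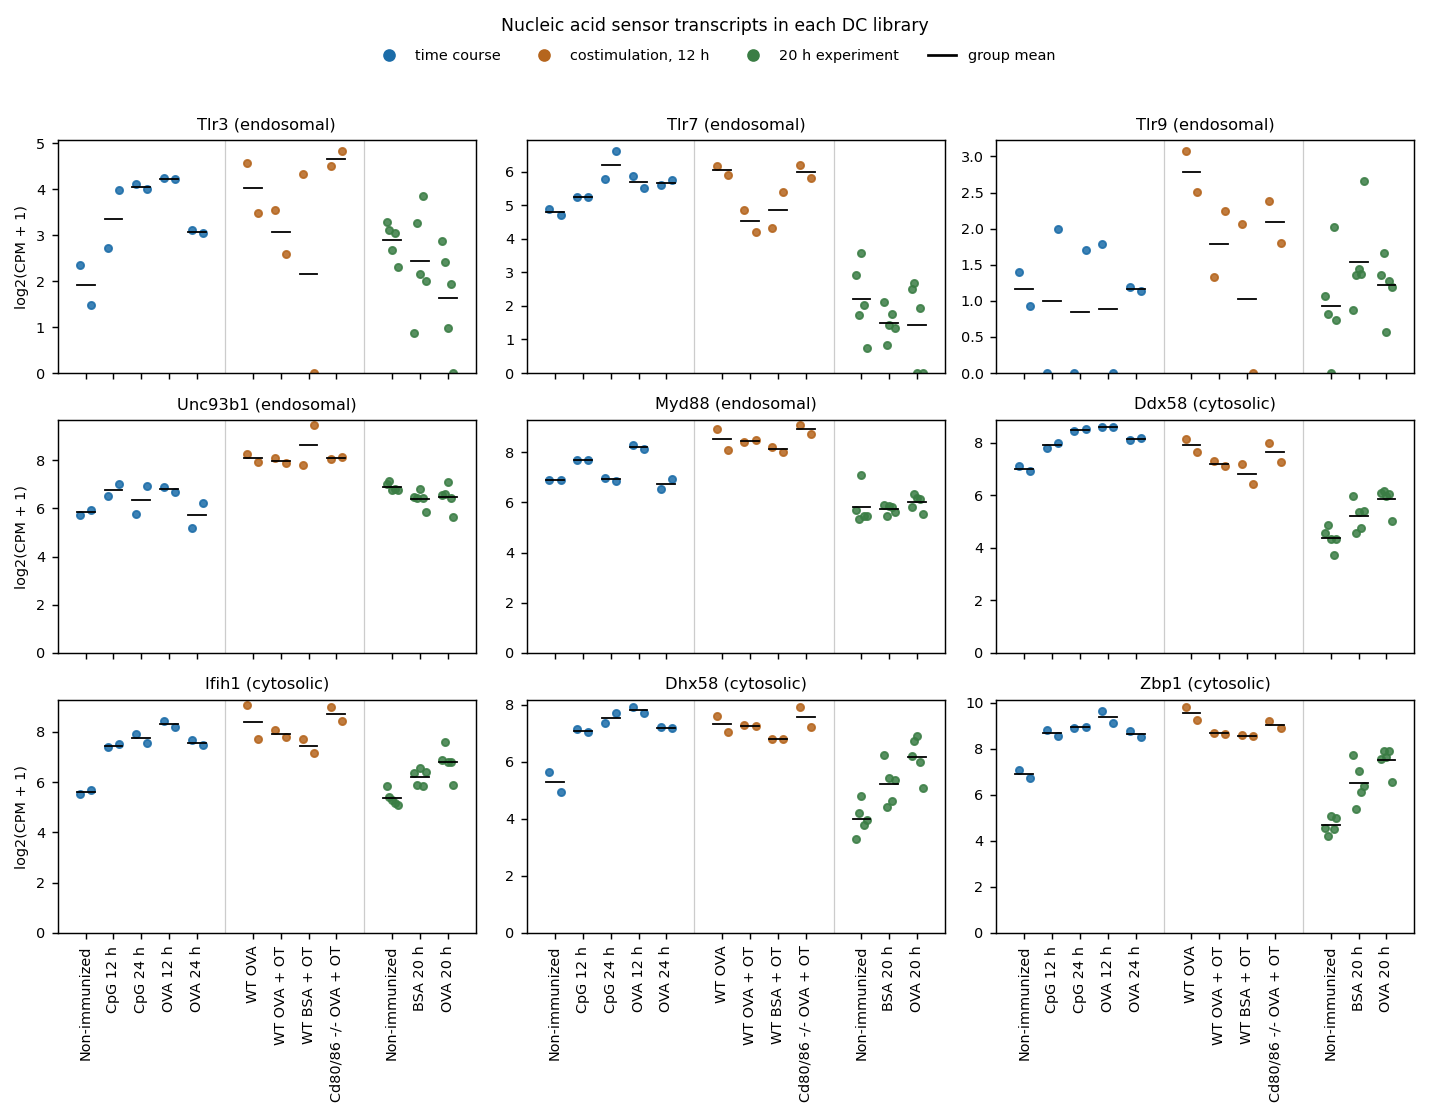
Level of each member as log2(CPM + 1) (vertical axis) in each DC library by group (horizontal axis), with points for libraries, lines for group means and a colour per experiment. Within the time course and within the 20 h experiment the mean of each cytosolic member is lowest in non-immunized DC, and Tlr9, whose panel has a shorter axis, reaches at most 7.40 CPM.

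Marker transcripts of other cell types and of migratory DC changed in the same libraries. Of 11 neutrophil markers 8 were tested and all 8 rose at 12 h after CpG, with sums of 192 and 153 CPM in controls and 12744 and 16527 CPM after CpG, while after OVA the sums were 2207 and 2199 CPM at 12 h. T cell markers fell, 12 of 14 tested (15 in the list) at 12 h after CpG and 9 of 14 at each time after OVA, from sums of 6732 and 7037 CPM to between 1832.5 and 3622 CPM in those groups. B cell markers summed to 573 and 564 CPM in controls and to between 606 and 3026 CPM after immunization. Migratory DC markers rose in 10 of 10 tested (12 in the list) at 12 h after CpG, 6 at 12 h after OVA and 9 at 24 h after either particle, from 584 and 952 CPM in controls to 1150.1 and 1447 CPM at 12 h and 5557 and 6946 CPM at 24 h after OVA. The highest neutrophil sums were those of CpG at 12 h, and the highest cytosolic sensor levels those of OVA at 12 h. The part of these markers in the sensor changes was not tested.

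Endosomal members moved less evenly. After OVA particles at 12 h all 4 tested members (Tlr3, Tlr7, Unc93b1 and Myd88) rose. By 24 h only Tlr7 was called, and after CpG-only particles 2 of 4 were called at each time, Unc93b1 and Myd88 at 12 h and Tlr3 and Tlr7 at 24 h. The median change of the tested endosomal members was 1.09, 1.32, 1.38 and 0.64 (log2) for CpG at 12 h, CpG at 24 h, OVA at 12 h and OVA at 24 h.

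Myd88, the shared adaptor, was at 117 and 117 CPM without immunization, 203 and 203 CPM at 12 h and 126 and 114 CPM at 24 h after CpG-only particles, and 310.1 and 275 CPM at 12 h and 90.8 and 121 CPM at 24 h after OVA particles. Both groups at 12 h stood above all others, and both at 24 h overlapped the controls. It rose at 12 h by 1.01 ± 0.19 (log2) after CpG and 1.55 ± 0.19 after OVA (edgeR adjusted p 0.00139 and 2.36e-05), and at 24 h the differences from controls were 0.23 ± 0.19 and 0.07 ± 0.20 (adjusted p 0.548 and 0.872). Between 12 h and 24 h it fell by 1.49 ± 0.19 after OVA (adjusted p 0.000145) and by 0.78 ± 0.19 after CpG (adjusted p 0.0196). The fall after CpG was not called by DESeq2 (adjusted p 0.0502). Monocyte and macrophage markers also fell between these times, 11 of 11 tested after OVA and 10 of 11 after CpG, from sums of 2741 to 3402 CPM at 12 h to 872 to 1203 CPM at 24 h. Their part in the Myd88 values was not tested.

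Unc93b1, the chaperone of these receptors, had 52.2 and 60.2 CPM in controls, 90.1 and 128 CPM at 12 h and 53.9 and 121 CPM at 24 h after CpG-only particles, and 119 and 101 CPM at 12 h and 35.8 and 73.7 CPM at 24 h after OVA particles. Levels at 12 h were above the controls, whereas those at 24 h differed between replicates and overlapped the controls. It rose at 12 h by 1.16 ± 0.33 (log2) after CpG and 1.21 ± 0.32 after OVA (edgeR adjusted p 0.0230 and 0.0200), and was not called at 24 h (adjusted p 0.0918 and 0.796). Without CpG replicate 1 at 24 h it was called there (1.28, adjusted p 0.00224). The call at 12 h after CpG was lost without non-immunized replicate 1 or 2 or CpG replicate 2 (adjusted p 0.160, 0.113 and 0.184). That after OVA was lost without any 1 of the 4 libraries compared (adjusted p 0.0523 to 0.161).

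Tlr7, the receptor for single-stranded RNA, was at 28.5 and 25.1 CPM without immunization, 37.2 and 37.3 CPM at 12 h and 53.9 and 96.3 CPM at 24 h after CpG-only particles, and 57.0 and 45.0 CPM at 12 h and 47.3 and 53.2 CPM at 24 h after OVA particles. All immunized libraries exceeded the controls. It rose by 1.73 ± 0.29 (log2) at 24 h after CpG (edgeR adjusted p 0.000678) and by 1.16 ± 0.30 and 1.11 ± 0.30 at 12 h and 24 h after OVA (adjusted p 0.0149 and 0.0207), and at 12 h after CpG the difference was 0.68 ± 0.32 (adjusted p 0.172). DESeq2 did not call it after OVA (adjusted p 0.0650 and 0.0927). Leaving out 1 library ended the OVA calls in 3 cases at 12 h (non-immunized replicate 1 or 2, or OVA replicate 1) and for each of the 4 libraries at 24 h, with adjusted p up to 0.165. The highest Tlr7 level, CpG at 24 h replicate 2, coincided with the highest B cell marker sum (3026 CPM against 725 CPM in replicate 1). Whether these are linked was not tested.

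Tlr3 rested on 2 to 22 counts per library in the time course. Its levels were 4.08 and 1.80 CPM in controls, 5.63 and 14.9 CPM at 12 h and 16.3 and 15.0 CPM at 24 h after CpG-only particles, and 17.9 and 17.7 CPM at 12 h and 7.68 and 7.25 CPM at 24 h after OVA particles. Every immunized library was above both controls. It rose by 2.52 ± 0.62 (log2) at 24 h after CpG and by 2.75 ± 0.60 at 12 h after OVA (edgeR adjusted p 0.0130 and 0.00549), while the differences for CpG at 12 h and OVA at 24 h were 1.88 ± 0.68 and 1.49 ± 0.71 (adjusted p 0.0737 and 0.190). The CpG call was lost in DESeq2 (adjusted p 0.0590) and without non-immunized replicate 2 (adjusted p 0.152). The OVA call was lost without that library or OVA replicate 1 (adjusted p 0.0908 and 0.0552). Without CpG replicate 1 Tlr3 was called at 12 h after CpG (2.52, adjusted p 0.0377). Over the 8 tested members, the count called after OVA at 12 h was 8, and 5 without non-immunized replicate 2 or OVA replicate 1.

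At 12 h Ddx58 and Ifih1 were higher after particles with OVA than after CpG-only particles. OVA exceeded CpG-only particles by 0.72 ± 0.18 (log2) for Ddx58 and 0.88 ± 0.20 for Ifih1 (edgeR adjusted p 0.0403 and 0.0246), and by 0.75 ± 0.22 for Dhx58 and 0.74 ± 0.22 for Zbp1 without a call (adjusted p 0.104 and 0.0967). No endosomal member was called. These 2 members compare with 2.46% of genes called in this comparison and 0.753% called higher. Neither call held without any 1 of the 4 libraries. Without the filter on low counts, and when only these 4 libraries were fitted, 4 members were called. The share of all genes called in those 2 fits was not counted. Migratory DC markers were lower after OVA in this comparison, 9 of 10 tested (12 in the list), with sums of 1150.1 and 1447 CPM against 4328 and 4801 CPM after CpG, and neutrophil markers in 4 of 8. Their part in the sensor differences was not tested.

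At 24 h the sign of the fitted difference between particles turned for every tested member, with OVA lower than CpG by 0.15 to 1.03 on the log2 scale. Libraries of Unc93b1 overlapped between the particles at both times, and those of Myd88 and Ifih1 at 24 h. No member was called by edgeR in the comparison at 24 h, where 0% of genes were called. At an unadjusted p under 0.05 edgeR had 2 of 8 tested members, Tlr7 and Unc93b1, and 959 of 9428 genes. DESeq2 called 0 members. Without CpG replicate 1 at 24 h Unc93b1 was called (-1.11, adjusted p 0.0251).

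The difference between particles itself changed with time for Ddx58. The interaction was -1.07 ± 0.25 (log2, edgeR adjusted p 0.0250), against -1.03 ± 0.28 for Ifih1, -1.10 ± 0.31 for Dhx58 and -1.01 ± 0.31 for Zbp1, which were not called (adjusted p 0.0595, 0.0701 and 0.0920). In that test 3.38% of genes were called, 0.689% in the direction of Ddx58. The call for Ddx58 was lost without replicate 1 or 2 of CpG at 12 h, OVA at 12 h or OVA at 24 h (adjusted p 0.0628 to 0.113). Without CpG replicate 1 at 24 h 4 members were called, and without replicate 2 there were 2.

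Within OVA particles 3 members fell from 12 h to 24 h, where 8.9% of genes were called and 3.87% fell. Beside Myd88 these were Ifih1 (-0.76 ± 0.20, edgeR adjusted p 0.0240) and Zbp1 (-0.77 ± 0.22, adjusted p 0.0341). Ifih1 lost its call without any 1 of the 4 libraries and in DESeq2 (adjusted p 0.0531 there and up to 0.186), and Zbp1 without OVA replicate 1 at 12 h or either replicate at 24 h, so that 1 member was called without replicate 1 of either time. Unc93b1 differed by -1.03 ± 0.34 without a call (adjusted p 0.0702), and it was called without the filter on low counts, with a filter at a mean of 1 CPM, with the replicate block and with only these 4 libraries (adjusted p 0.00144, 0.0478, 0.0265 and 0.0291), and without OVA replicate 2 at 24 h (-1.58, adjusted p 0.0443). Within CpG-only particles 7.63% of genes were called, 4.26% lower and 3.36% higher. Beside the fall of Myd88, Tlr7 rose by 1.04 ± 0.29 (adjusted p 0.0365), and no cytosolic member was called (0.23 to 0.59). Both calls were lost in DESeq2, for Tlr7 with an adjusted p of 0.203. They were also lost without CpG replicate 1 or 2 at 12 h or replicate 2 at 24 h.

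**Figure D3:**
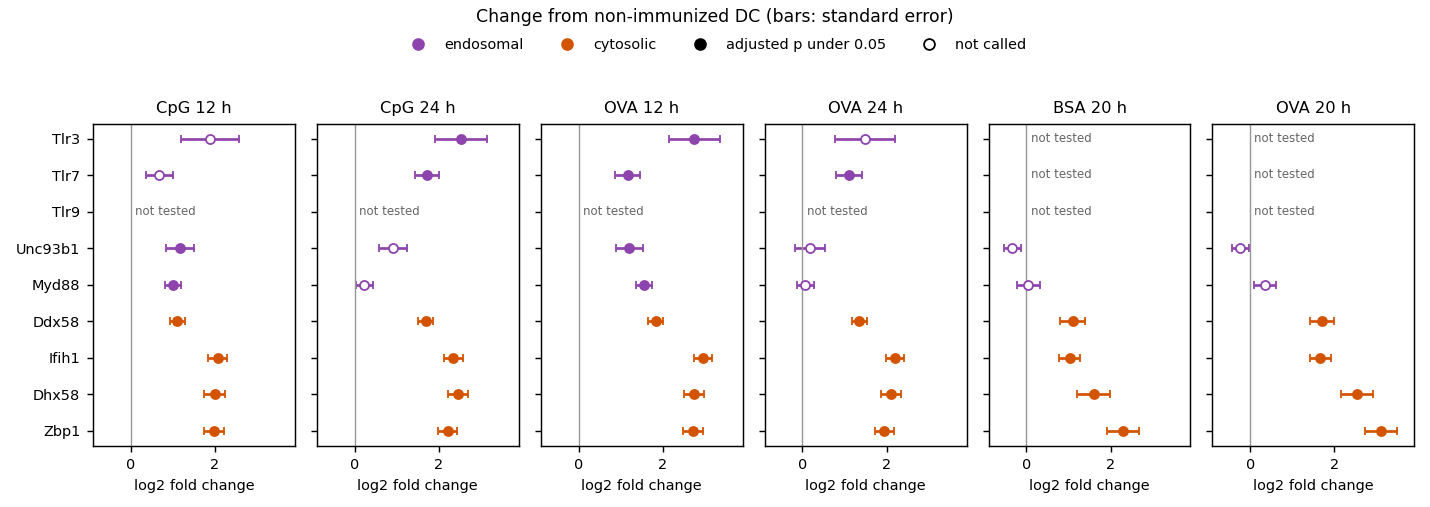
Change of each tested member from non-immunized DC (horizontal axis, log2 fold change of edgeR, bars are standard errors) in the 6 comparisons with controls, endosomal members in purple and cytosolic members in orange, filled where called. All cytosolic points are filled and lie between 1.03 and 3.11, and endosomal points spread from -0.34 to 2.75.

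At 20 h the cytosolic sensors rose after both proteins. In this experiment 6 of the 9 members passed the count filter, Unc93b1, Myd88 and the 4 cytosolic members. All 4 cytosolic members rose after OVA, where 15.6% of genes were called and 9.59% rose, and after BSA, where 5.45% were called and 3.68% rose. Neither Unc93b1 nor Myd88 was called. The comparisons share the 5 non-immunized libraries.

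Zbp1 was at 23.0, 17.5, 32.7, 22.0 and 31.1 CPM in non-immunized replicates 1 to 5, at 188, 237, 198, 240.1 and 92.6 CPM after OVA and at 213, 40.9, 129, 70.0 and 82.5 CPM after BSA. Every immunized library was above every control, and the BSA libraries spread over a wider range than the OVA libraries and overlapped them. Zbp1 rose by 3.11 ± 0.38 (log2) after OVA and 2.30 ± 0.38 after BSA (edgeR adjusted p 2.23e-05 and 0.00179). This was the largest rise of any tested member in any comparison with controls.

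Dhx58 had 8.76, 17.5, 27.2, 12.8 and 14.6 CPM in non-immunized replicates 1 to 5, 72.3, 106, 118, 63.0 and 32.6 CPM after OVA, and 75.6, 20.5, 41.8, 23.9 and 40.1 CPM after BSA. The OVA libraries were all above the controls, whereas BSA replicates 2 and 4 lay within the range of the controls. It rose by 2.53 ± 0.38 (log2) after OVA and 1.60 ± 0.39 after BSA (edgeR adjusted p 0.00015 and 0.0203).

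Ddx58 was at 23.0, 28.2, 19.1, 12.2 and 19.2 CPM in non-immunized replicates 1 to 5, at 66.8, 70.9, 62.4, 65.9 and 31.9 CPM after OVA and at 62.3, 22.8, 40.7, 26.3 and 41.6 CPM after BSA. Again OVA and controls did not overlap, replicate 5 being the lowest of the OVA libraries, and BSA replicates 2 and 4 overlapped the controls. The rise was 1.70 ± 0.29 (log2) after OVA and 1.10 ± 0.30 after BSA (edgeR adjusted p 0.000422 and 0.0332).

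Ifih1 had 55.8, 41.8, 38.1, 35.4 and 33.1 CPM in non-immunized replicates 1 to 5, 116, 191, 112, 109.8 and 58.7 CPM after OVA, and 82.3, 57.5, 92.2, 56.5 and 83.2 CPM after BSA. Neither immunized group overlapped the controls, and the lowest OVA and BSA libraries came close to the highest control. It rose by 1.66 ± 0.25 (log2) after OVA and 1.03 ± 0.25 after BSA (edgeR adjusted p 0.000136 and 0.0189).

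The OVA calls of the 4 cytosolic members held in every alternative run. Those after BSA depended on single libraries. Only Zbp1 was called without non-immunized replicate 4 or BSA replicate 1, and 2 members were called without non-immunized replicate 1 or 5 or BSA replicate 3 or 5. Without non-immunized replicate 3 there were 3, with Ddx58 not called (adjusted p 0.0533). With a term for Y-linked transcripts Ifih1 was not called after BSA (1.09, adjusted p 0.0600).

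OVA and BSA were not told apart for any member at 20 h. OVA minus BSA was 0.60 ± 0.26 (log2) for Ddx58, 0.64 ± 0.23 for Ifih1, 0.94 ± 0.32 for Dhx58 and 0.81 ± 0.32 for Zbp1 (edgeR adjusted p 0.678 to 0.766). For Unc93b1 it was 0.10 ± 0.20 and for Myd88 0.30 ± 0.26. In this comparison edgeR called 0% of genes. All 4 cytosolic members had an unadjusted p under 0.05 in edgeR, as had 561 of all 9159 tested genes, and DESeq2 called 0 members.

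Unc93b1 stood at 127, 142, 106, 109.9 and 107 CPM in non-immunized replicates 1 to 5, at 91.9, 94.8, 134, 86.4 and 49.2 CPM after OVA and at 88.1, 85.0, 110.0, 85.2 and 56.7 CPM after BSA. Most immunized libraries were below the controls, with overlap in both groups. The differences were -0.23 ± 0.20 (log2) after OVA and -0.34 ± 0.20 after BSA (edgeR adjusted p 0.451 and 0.352). Myd88 was at 50.4, 39.6, 136, 42.7 and 43.1 CPM in controls, 55.0, 80.7, 70.6, 69.4 and 46.0 CPM after OVA and 58.2, 43.3, 56.7, 54.9 and 47.7 CPM after BSA. The control group spanned all immunized libraries through replicate 3 alone, the shallowest library. Its differences were 0.35 ± 0.27 after OVA and 0.05 ± 0.27 after BSA (adjusted p 0.407 and 0.944). Without non-immunized replicate 3, Myd88 was called after OVA (0.69, adjusted p 0.00966), which made 5 members.

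Tlr3 and Tlr7 were too low for a test at 20 h. Tlr7 had 47 counts in 15 libraries, between 0 and 6 in each, and Tlr3 had 95, between 0 and 17. Tlr3 was at 3.98 to 8.76 CPM (median 7.32) in controls, 0 to 6.29 CPM (median 2.83) after OVA and 0.831 to 13.5 CPM (median 3.44) after BSA. Without the filter the Tlr3 difference of OVA from controls was -1.17 ± 0.57 (log2, edgeR adjusted p 0.223) and that of Tlr7 -0.53 ± 0.72 (adjusted p 0.704). Of 12 type 1 DC markers 11 were tested after OVA, of which 5 fell and 2 rose, and their sum was 2213 to 2628 CPM in controls and 1883 to 2892 CPM after OVA. Among those that fell, the chemokine receptor Xcr1 fell by 0.98 ± 0.30 after OVA (adjusted p 0.0307), from 37.8 to 59.9 CPM in controls to 12.1 to 41.7 CPM. The part of these cells in the Tlr3 values was not tested.

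Monocyte and macrophage markers fell at 20 h, 8 of 10 tested (16 in the list) after each protein. They summed to 750.1 to 2317 CPM in controls, 156 to 340.3 CPM after OVA and 234 to 394 CPM after BSA. Type 2 conventional DC markers fell in 7 of 9 tested (12 in the list) after OVA and 4 of 9 after BSA, with sums of 508 to 1089 CPM in controls, 264 to 368 CPM after OVA and 306 to 380.4 CPM after BSA. Migratory DC markers summed to 11329 to 19419.8 CPM in controls, 20187 to 27555 CPM after OVA and 15909 to 23698 CPM after BSA. B cell marker sums stayed between 23.4 and 152 CPM, and neutrophil sums between 3.41 and 117 CPM. The part of these cells in the sensor levels was not tested.

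The contrast of both arms was summarized in each library as the mean log2(CPM + 1) of the 4 cytosolic members minus that of the 5 endosomal members. Counts were not scaled to gene length, so levels of different genes are not compared and only the change of this gap between groups of an experiment is read. In the time course the gap was 2.09 ± 0.01 (SD, n = 2) without immunization, 2.97 ± 0.54 and 3.30 ± 0.46 at 12 h and 24 h after CpG, and 3.37 ± 0.18 and 3.42 ± 0.29 after OVA. Every immunized library exceeded both controls, and the immunized groups overlapped. At 20 h it was 0.86 ± 0.38 (SD, n = 5) in controls, 2.28 ± 0.76 after BSA and 3.24 ± 0.38 after OVA. No immunized library overlapped the controls there, with 0.44 to 1.40 in controls against 1.50 to 3.35 after BSA and 2.86 to 3.87 after OVA.

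Both terms of the gap were also followed singly. The cytosolic mean went from 6.21 without immunization to between 7.78 and 8.53 in the time course and from 4.61 to 5.80 after BSA and 6.59 after OVA at 20 h. The endosomal mean went from 4.12 to between 4.47 and 5.16 in the time course. At 20 h it was 3.74 in controls, 3.52 after BSA and 3.35 after OVA, with overlap between the groups. The change in gap was thus 0.88 and 1.21 for CpG and 1.28 and 1.33 for OVA at 12 h and 24 h, 1.41 for BSA and 2.37 for OVA at 20 h. Leaving out single libraries kept it between 0.50 and 1.26 for CpG at 12 h, the widest range, and between 2.22 and 2.51 for OVA at 20 h. The endosomal mean includes Tlr9, below the count filter in every experiment, and Tlr3 and Tlr7, below it at 20 h. Their part of the gap rests on few counts, and the gap was not computed without them.

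**Figure D4:**
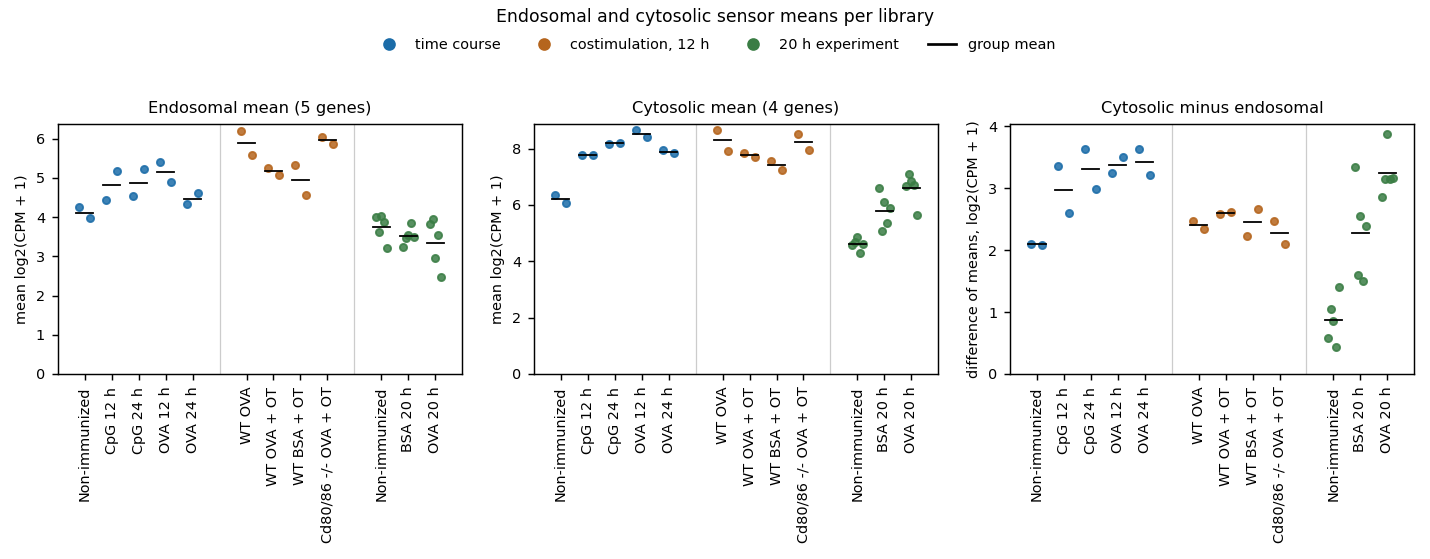
Mean log2(CPM + 1) of the endosomal members, of the cytosolic members, and their difference (vertical axes) in each DC library by group (horizontal axis), with points for libraries and lines for group means. The difference is lowest in both non-immunized groups (2.09 and 0.86), and in the costimulation experiment all 8 libraries lie between 2.10 and 2.67.

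In the costimulation experiment no member was called in any of 3 comparisons, and both arms stood at like distances. The gap was 2.40 ± 0.09 (SD, n = 2) after OVA without OT cells, 2.61 ± 0.02 with OT cells, 2.45 ± 0.31 after BSA with OT cells and 2.28 ± 0.26 in libraries labelled Cd80/86 -/-. The cytosolic mean was highest after OVA without OT cells, 8.29 ± 0.53, and lowest after BSA with OT cells, 7.41 ± 0.24. The endosomal mean was 5.89 ± 0.44 and 4.96 ± 0.54 in those groups, and 5.17 ± 0.12 after OVA with OT cells.

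Tlr7 was the member with the largest difference between OVA with and without OT cells. It was at 71.5 and 58.3 CPM without OT cells, 28.2 and 17.5 CPM with them, 19.1 and 41.3 CPM after BSA with OT cells, and 72.7 and 54.7 CPM in the libraries labelled Cd80/86 -/-. The wild-type groups with OT cells overlapped each other and lay below both remaining groups, which overlapped each other. OVA with OT cells differed from OVA without them by -1.42 ± 0.37 (log2, edgeR adjusted p 0.0703), where 2.6% of genes were called. At an unadjusted p under 0.05 edgeR had 2 of 8 tested members, Tlr7 and Zbp1, and 1631 of 9355 genes. DESeq2 called 0 members. Tlr7 was called by edgeR without the filter on low counts, with only these 4 libraries, and with the replicate number as a block (adjusted p 0.00428, 0.0432 and 0.0151). It was not called with DESeq2's size factors, with a filter at a mean of 1 CPM or without any 1 of these libraries.

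DC labelled Cd80/86 -/- exceeded wild-type DC with OVA and OT cells in Tlr7 by 1.39 ± 0.37 (edgeR adjusted p 0.274), in a comparison where 0% of genes were called. At an unadjusted p under 0.05 edgeR had 1 of 8 tested members, Tlr7, and 1068 of 9355 genes. DESeq2 called 0 members. Tlr7 was called by edgeR without the filter and with only these 4 libraries (adjusted p 0.0163 and 0.00841). It was not called with the replicate block, with DESeq2's size factors, with a filter at a mean of 1 CPM or without any 1 of these libraries. Both comparisons share the wild-type libraries with OVA and OT cells, so their opposite signs for Tlr7 are not independent. OVA against BSA with OT cells gave -0.31 ± 0.40 for Tlr7, with 0.0107% of genes called. In that comparison edgeR had 0 members and 850 of 9355 genes at an unadjusted p under 0.05, and DESeq2 called 0 members.

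Plasmacytoid DC markers varied between the same libraries. Siglech, a surface receptor of these cells, was at 284 and 587 CPM after OVA without OT cells, 39.6 and 15.0 CPM with OT cells, 20.7 and 799 CPM after BSA with OT cells and 382 and 397 CPM in libraries labelled Cd80/86 -/-. The 14 markers of the list summed to 10067 and 9304 CPM, 3606 and 3048 CPM, 2513 and 11078.5 CPM, and 8606 and 7176 CPM in the same order. All 14 were tested between OVA with and without OT cells and 0 were called, with a median of -1.78 (log2). None was at 0 except 1 in BSA replicate 1. The groups high in Tlr7 were those in which both libraries were high in Siglech, and BSA replicate 3, with the highest Siglech, had 41.3 CPM of Tlr7. NK cell markers fell with OT cells, 10 of 10, from sums of 2775 and 7003 CPM to 267 and 98.9 CPM. The part of either cell type in the Tlr7 values was not tested.

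**Figure D5:**
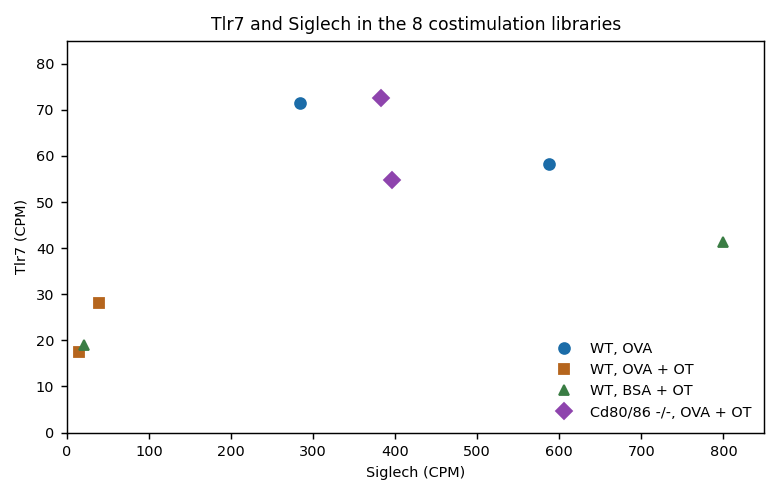
Tlr7 (vertical axis, CPM) against Siglech (horizontal axis, CPM) in the 8 costimulation libraries, with one symbol per group. The 4 libraries highest in Tlr7, from 54.7 CPM up, have at least 284 CPM of Siglech, and BSA replicate 3 stands apart at 799 CPM of Siglech and 41.3 CPM of Tlr7.

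The other members varied within the groups of this experiment. Unc93b1 was at 301 and 242 CPM after OVA without OT cells, 273 and 233 CPM with OT cells, 219.6 and 696 CPM after BSA with OT cells and 267 and 282 CPM in libraries labelled Cd80/86 -/-. Only BSA replicate 3 stood outside a narrow range, and it was also the library with the highest Siglech. Zbp1 was at 914 and 612 CPM after OVA without OT cells, 417 and 403 CPM with OT cells, 385 and 378 CPM after BSA with OT cells and 585 and 479 CPM in libraries labelled Cd80/86 -/-. Its groups did not overlap, and OVA with OT cells was lower than without them by 0.84 ± 0.31 (log2, edgeR adjusted p 0.178). Ifih1 reached 532 and 208 CPM without OT cells and 266 and 219 CPM with them, and those groups overlapped. Myd88 was at 489.6 and 274 CPM without and 337 and 359 CPM with OT cells. Dhx58 was at 197 and 131 CPM without and 156 and 151 CPM with them. Ddx58 was at 284 and 201 CPM without and 157 and 138 CPM with OT cells, without overlap (-0.66 ± 0.36, adjusted p 0.383). Tlr3 ran from 0 to 27.4 CPM over the 8 libraries.

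Genes of the surrounding pathways were counted in lists that hold none of the 9 members. For every list, the share of all tested genes that rose was 11.6%, 7.96%, 9.56% and 10.2% in the time course, in the order below. At 20 h this share was 3.68% after BSA and 9.59% after OVA. In the RIG-I-like receptor pathway 14 of 16 genes were tested and 7, 7, 8 and 7 rose for CpG at 12 h, CpG at 24 h, OVA at 12 h and OVA at 24 h, 4 after BSA and 9 after OVA at 20 h, and 0 fell. Eif2ak2, the kinase PKR that binds double-stranded RNA, rose by 1.91 ± 0.22 (log2) at 12 h after CpG and 2.63 ± 0.22 after OVA, and by 1.00 ± 0.26 after BSA and 1.68 ± 0.26 after OVA at 20 h (edgeR adjusted p 1.98e-05, 5.52e-07, 0.0301 and 0.000203). Mavs, the adaptor that RIG-I and MDA5 share, was not called in any of the 6 comparisons with controls, with differences between -0.67 and 0.53.

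Among genes of cytosolic DNA sensing, several sensors and nucleases rose. Of 16 genes 15 were tested in the time course and 9, 5, 10 and 5 rose, and of 14 tested at 20 h 3 rose after BSA and 5 after OVA, with 0 falling. Trex1, an exonuclease that degrades cytosolic DNA, and Ifi204, a DNA-binding member of the interferon-inducible p200 family, were called in all 6 comparisons, Trex1 by 0.92 to 2.07 and Ifi204 by 1.01 to 3.35 (log2). Mb21d1, which encodes the DNA sensor cGAS, rose at 12 h only, by 1.28 ± 0.31 after CpG and 1.76 ± 0.29 after OVA (edgeR adjusted p 0.00831 and 0.000602). Its adaptor Tmem173 (STING) and the inflammasome sensor Aim2 were called in none of the 6. Ripk3, through which ZBP1 starts cell death, was not called either (-0.51 to 0.36). Mlkl, which acts after RIPK3, rose by 2.49 ± 0.58 at 12 h after CpG and by 3.09 ± 0.54 and 1.98 ± 0.61 at 12 h and 24 h after OVA (adjusted p 0.00666, 0.000867 and 0.0387).

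Genes around the endosomal receptors were called in both directions. Among adaptors and kinases of TLR signalling 22 of 24 genes were tested in the time course and 21 at 20 h, of which 2, 1, 4 and 1 rose in the time course and 1 and 2 at 20 h after BSA and OVA. Of these, 1 fell after OVA at 12 h and 1 at 24 h. Of all tested genes 11.6%, 7.96%, 9.56% and 10.2% rose in the time course, and 3.68% and 9.59% at 20 h. Irf7, the transcription factor of the interferon response, rose by 2.35 ± 0.23 (log2) at 12 h after CpG, 2.97 ± 0.23 at 12 h after OVA, 3.56 ± 0.49 after BSA and 4.39 ± 0.50 after OVA at 20 h (edgeR adjusted p 5.34e-06, 3.58e-07, 0.00057 and 1.38e-05). Ticam1, the adaptor of TLR3, was called only after OVA at 20 h (0.47 ± 0.15, edgeR adjusted p 0.0399). Of 15 tested genes for trafficking and processing of these receptors 7, 1, 6 and 3 rose in the time course, with 1 lower after OVA at 24 h, and 3 and 5 rose at 20 h after BSA and OVA, with 3 lower after OVA. Lgmn, an endosomal protease that cleaves TLR9, rose in all 6 comparisons, by 0.57 to 1.96 (log2). Slc15a3, an endosomal peptide transporter, rose at 12 h by 2.07 ± 0.38 after CpG and 3.01 ± 0.36 after OVA (adjusted p 0.00114 and 2.29e-05). Pld4, a nuclease that degrades ligands of TLR9, rose by 0.87 ± 0.20 at 12 h after CpG (adjusted p 0.00639) and fell by 0.74 ± 0.21 after OVA at 20 h (adjusted p 0.0205), and Hmgb1, a DNA-binding protein, fell by 0.99 ± 0.25 (adjusted p 0.00944).

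Among 12 other Toll-like receptors and cofactors 7 were tested in the time course, of which 2 rose and 1 fell at 12 h after CpG, 0 were called at 24 h after CpG, 1 rose and 1 fell at 12 h after OVA and 1 rose at 24 h. At 20 h 6 were tested and 2 fell after OVA, Tlr11 (-1.13 ± 0.23, edgeR adjusted p 0.00214) and Tlr1 (-1.07 ± 0.25, adjusted p 0.00577), while 0 were called after BSA. Of the ZBP1 partners 2, 1, 3 and 2 of 6 rose in the time course and 0 of 5 were called at 20 h. Cytokine outputs were called in 4, 3, 5 and 5 of 6 tested genes (14 in the list) in the time course, all higher, with 1 and 4 higher after BSA and OVA at 20 h. Cxcl10, a chemokine that interferon induces, rose by 4.16 ± 0.27 and 5.27 ± 0.28 (log2) at 12 h after CpG and OVA (adjusted p 2.09e-07 and 2.36e-08). In the 3 costimulation comparisons 0 genes of these lists were called by edgeR, except 1 trafficking gene that fell with OT cells.

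Genes whose group means followed those of a member most closely were ranked by the root mean square difference of centred log2(CPM + 1) over the 12 groups, among 7169 genes. Ddx58 was closest to Ifi35, Parp9 and Slfn8 (0.16 each). Ifih1 was closest to Nampt (0.13), Gbp3 (0.14) and Eif2ak2 (0.16), and Dhx58 to Parp12 (0.14), Daxx (0.18) and Pml (0.19). Zbp1 was closest to Phf11d (0.22), Dhx58 (0.25) and Xaf1 (0.27). Myd88 was closest to Noc4l (0.13), Ctsc (0.16) and Fkbp2 (0.16), and Unc93b1 to Thoc6 (0.17), Nsmf (0.19) and Serp1 (0.19). Tlr7 was closest to Ttc39b (0.22), Ms4a6b (0.23) and Ascc3 (0.25), and for Tlr3 the smallest difference was larger, 0.39 (Adap2). The nearest for Tlr9, Rrn3 (0.19), rests on few counts of Tlr9. The measure is a description of genes counted in the same libraries, and no test was made of it. It is not scaled to the spread of a member over the groups, which had an SD from 0.36 (Unc93b1) to 0.87 (Zbp1).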

How the data were processed

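Bulk RNA of DC was measured in 33 libraries of 12 groups. The authors deposited raw counts per gene in 3 tables, of which that of the time course is labelled as counts of molecule tags (UMI). Per the submitters' processing notes, bcl2fastq, HISAT 0.1.6, HOMER and the mm9 build were named, without roles. Only columns of raw counts were used. Columns of 2 libraries that match no sample (4 columns) and a T cell table were not used.

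Each table was fitted whole with edgeR 4.0.16 (R 4.3.3): TMM scaling, filterByExpr by group (minimum count 10), 1 term per group, quasi-likelihood test and Benjamini-Hochberg adjustment over all tested genes, called at an adjusted p under 0.05. All libraries of an experiment share the estimate of spread. CPM are counts scaled to a library total of 1e+06 (totals were 367209 to 2052904 counts), and fold changes are those of the fit. Pooled counts have exact Poisson intervals (95%). Tables were not tested against each other. The scripts were tested on simulated counts.

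The members, gene lists and markers were chosen with earlier results of these data known. Beside the members, up to 4 called genes of smallest adjusted p per list (CpG at 12 h, BSA and OVA at 20 h against controls) and Irf7, Tmem173, Mb21d1, Aim2, Mavs, Ticam1, Ripk3, Mlkl, Siglech, Xcr1 and Cd79a were named by rule, and 1 further gene of the rule is not reported here. Likeness was searched among genes that averaged 10 CPM or more in every experiment. RefSeq promoters are those of GRCm38.p6. Alternatives were DESeq2 1.42.0, its size factors in edgeR, other filters, a replicate block, only the libraries compared, each library left out, other pseudocounts (0.1 and 10 in place of 1), Myd88 left out of the endosomal mean, a term for Y-linked transcripts over 20 CPM, and 2 libraries left out together. Leaving single libraries out of the gap was added after seeing the data.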

Additional observations from a re-analysis of the deposited data

Results flagged for a closer look

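Of 36 sets of 5 replicates looked at, 4 held a library far from the other 4, where chance gives about 1 in 20. Ddx58 was at 31.9 CPM in OVA replicate 5 at 20 h, against 62.4 to 70.9 CPM in the other OVA libraries. The mean of the cytosolic members in the same library was 5.64 on the log2(CPM + 1) scale, against 6.68 to 7.10. Myd88 was at 136 CPM in non-immunized replicate 3 of the 20 h experiment, the shallowest library, against 39.6 to 50.4 CPM. Tlr9 was at 5.30 CPM in BSA replicate 5 at 20 h, which is 7 counts, against 0.831 to 1.72 CPM.

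The difference between OVA and CpG-only particles changed from 12 h to 24 h for Ddx58 by -1.07 (log2), by the interaction term of edgeR (adjusted p 0.0250, and 0.0243 in DESeq2). The call was lost without replicate 1 or 2 of CpG at 12 h, OVA at 12 h or OVA at 24 h. All 4 cytosolic members had interactions between -1.1 and -1.01, and of these only Ddx58 was called.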

How the results depend on the processing

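No called change of a member reversed under any alternative run. Changes of sign of values that were not called are not counted. The number of called members moved by over 1.5 times in these cases, and the cause was not tested. For alternative runs other than DESeq2, the share of all genes called was not counted, so these counts of members have no such share beside them. For CpG at 24 h against 12 h it was 0 by DESeq2 and 0 with only the libraries compared (2 as reported). For OVA against CpG at 12 h it was 4 without the filter on low counts and 4 with only the libraries compared (2 as reported). Without the filter it was 5 for OVA at 24 h against 12 h (3 as reported) and 4 for the change of the particle difference with time (1 as reported). Between OVA with and without OT cells, and between Cd80/86 -/- and wild type, it was 1 without the filter and 1 with only the libraries compared (0 as reported in both). Apart from these counts, the change in gap for OVA at 20 h moved by more than the spread between libraries with a pseudocount of 10 CPM, to 1.81 (2.37 as reported).

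Leaving out single libraries gave 5 to 7 called members for CpG at 12 h, 5 to 7 for CpG at 24 h, 5 to 7 for OVA at 12 h, 4 for OVA at 24 h, 1 to 4 for BSA and 4 to 5 for OVA at 20 h against controls. It gave 0 for OVA against CpG at 12 h, 0 to 1 at 24 h, 0 to 2 for CpG and 1 to 2 for OVA at 24 h against 12 h, 0 to 4 for the change of the particle difference, and 0 in the costimulation comparisons and for OVA against BSA at 20 h. The change in gap ranged over 0.50 to 1.26, 0.89 to 1.54, 1.15 to 1.41 and 1.12 to 1.54 for CpG at 12 h and 24 h and OVA at 12 h and 24 h, 1.15 to 1.61 for BSA and 2.22 to 2.51 for OVA at 20 h. In groups of 2 the remaining library is assumed to vary like the others. Over single members these fits ended 59 calls, added 9 and left 528 results on the same side.

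Shared replicate numbers were not shown to pair libraries: deviations of same-numbered libraries correlated at -0.046 to 0.149 in the time course, -0.058 to 0.173 in the costimulation experiment and -0.142 to 0.165 at 20 h. With the replicate block 3 members were called for the change of the particle difference (1 as reported) and 1 between OVA with and without OT cells (0 as reported), and 12 of 14 comparisons stayed within 1.5 times. The replicate block was not run for OVA against BSA with OT cells, which share 1 number. The fit of only the libraries compared was not run for the change of the particle difference. Depth limits Tlr9 throughout and Tlr3 and Tlr7 at 20 h.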

Other observations

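Non-immunized DC of the time course and of the 20 h experiment stood at different levels of Ddx58, Zbp1 and Dhx58, while levels of Ifih1 overlapped. Levels were not tested across tables. Ifih1 was at 45.7 and 50.3 CPM in the first and at 33.1 to 55.8 CPM in the second. Dhx58 was at 29.6 and 48.9 CPM against 8.76 to 27.2 CPM. Ddx58 was at 120.3 and 138 CPM in the first and at 12.2 to 28.2 CPM in the second, and Zbp1 at 106 and 136 CPM against 17.5 to 32.7 CPM. Tlr7 was at 25.1 and 28.5 CPM against 0.663 to 10.9 CPM, while Unc93b1, at 52.2 and 60.2 CPM against 106 to 142 CPM, had the opposite order. T cell markers summed to 6732 and 7037 CPM in the first controls and to 158 to 332 CPM over all libraries of the 20 h experiment.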
